A study of Mus musculus with 69 samples.

Results

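Chitinase-like and alternative activation genes were followed in the lungs of mice exposed to 2 titanium dioxide nanomaterials (NMs). The set held 6 genes of the 18656 tested: Chil1, Chil3, Chia1, Chit1, Arg1 and Retnla. Their probes were found through the RefSeq symbols that match the transcript names, and that rule uses no measured value. The genes themselves were chosen with earlier results of these data known. Together they were read by 8 of the 41174 probes on the array, with 2 probes each for Chia1 and Retnla and 1 probe for each of the other genes. Only part of the set is chitinase-like in the strict sense, since Chia1 and Chit1 encode enzymes that cut chitin.

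Family 18 chitinases cleave chitin, the polymer of insect, mite and fungal surfaces, whereas the chitinase-like proteins of the same family bind such sugars without cutting them. Chil3, Retnla and Arg1 are the classic marker genes of alternatively activated mouse macrophages, which arise under interleukin-4 and interleukin-13 signalling through the transcription factor STAT6. In the mouse lung, Chil3 is abundant in alveolar macrophages at rest, Chia1 is made by epithelium, and Chil1 is made by both epithelium and leukocytes.

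Female C57BL/6 mice, an inbred strain, were 5 to 7 weeks old on arrival and were acclimatised for 1 to 3 weeks. They received 18, 54 or 162 µg of NRCWE-025 or NRCWE-030 into the airways in 2% serum in water, and vehicle mice received that liquid alone, so every group was exposed to the serum. Whole lung RNA was taken 24 hours (day 1) or 28 days after the exposure. Each of the 69 arrays held the lung RNA of 1 mouse in the Cy5 channel and a universal mouse reference RNA in the Cy3 channel, without dye swap. The 14 groups (vehicle and 3 doses of each NM, on each day) had 5 arrays each, except NRCWE-025 at 162 µg on day 28, which had 4.

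The arrays lay on 19 slides, and the log2 ratios of the arrays within a group correlated at 0.8518 to 0.9827 over all genes with a symbol. Between 49.1% and 72.8% of the probes on an array were well above background in the lung channel. Cardiac and fat transcripts varied widely between lungs of one group. In vehicle mice on day 1, the summed fat markers on a log2 scale were 16.23 in replicate 2 and 13.24 in replicate 1, and 11.21 to 11.42 in the other 3 lungs. The summed type 2 epithelial markers were at 18.66 to 18.71 in the same mice. Scaling the lung channel between arrays by quantiles holds the brightest signals nearly alike, so that narrow range was largely set by the scaling. As mean log2 ratios to the reference, without that scaling, the type 2 markers ran from 4.17 to 4.53 and the fat markers from 1.66 to 5.31. In whole tissue, fewer cells of a type and less RNA per cell cannot be told apart.

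Promoter sequence was at hand for 5 of the 6 genes, from RefSeq on the GRCm38.p6 build, covering 250 bases before to 50 bases after the start of transcription. Chil1, Chil3 and Retnla are shown because they carried the largest shifts or the widest spread between lungs. Capitals mark matches, on either strand, to TTCNNNNGAA (the spacing that STAT6 prefers), TTCNNNGAA (the general STAT spacing), TTGCNNAA (a C/EBP-type motif) and TATAAA, the core promoter box, and no matches shown overlap. Sequences run 5′ to 3′ on the gene's own strand.
Chil1, chr1:134181906-134182205, plus strand: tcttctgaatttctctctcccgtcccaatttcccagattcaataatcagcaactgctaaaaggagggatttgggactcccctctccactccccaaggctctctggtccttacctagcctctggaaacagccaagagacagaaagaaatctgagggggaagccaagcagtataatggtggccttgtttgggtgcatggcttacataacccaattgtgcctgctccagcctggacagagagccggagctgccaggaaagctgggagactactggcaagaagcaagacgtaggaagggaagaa
Chil3, chr3:106167515-106167814, minus strand: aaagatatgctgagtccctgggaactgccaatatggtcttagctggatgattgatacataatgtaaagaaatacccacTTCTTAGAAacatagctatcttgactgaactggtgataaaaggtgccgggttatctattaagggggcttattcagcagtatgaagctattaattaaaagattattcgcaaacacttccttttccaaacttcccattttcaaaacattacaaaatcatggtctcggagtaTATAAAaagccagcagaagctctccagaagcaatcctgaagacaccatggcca
Retnla, chr16:48842359-48842658, plus strand: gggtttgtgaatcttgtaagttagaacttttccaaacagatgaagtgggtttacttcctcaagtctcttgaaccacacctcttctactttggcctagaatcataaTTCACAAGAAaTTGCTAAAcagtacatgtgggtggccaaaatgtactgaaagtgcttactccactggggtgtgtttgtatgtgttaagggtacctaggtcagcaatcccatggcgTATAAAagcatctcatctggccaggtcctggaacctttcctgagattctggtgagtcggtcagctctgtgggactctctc

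The Retnla promoter held TTCACAAGAA at -145 from the start, separated by 1 base from TTGCTAAA at -134, and a TATA box at -30. Among all 32851 promoters of the same length, 6.95% held TTCNNNNGAA, 8.3% TTCNNNGAA, 10.8% TTGCNNAA and 13.6% TATAAA. Chil3 held TTCTTAGAA at -172 and TATAAA at -3, Chia1 held TATAAA at -43, and these letters were found in neither the Chil1 nor the Chit1 window. A match describes letters and not a bound site. Chit1 and Chil1 are neighbouring genes on chromosome 1, Chia1 and Chil3 neighbour each other on chromosome 3, where Chil4 follows, and Retnla lies between its relatives Retnlb and Retnlg on chromosome 16.

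On the log2 ratio of lung to reference, no member passed an adjusted p (limma, Benjamini-Hochberg over 18656 genes) of 0.05 in any comparison of exposed with vehicle lungs. For 162 µg of NRCWE-030 on day 1, 0 of 6 members passed where 1.69% of all genes did. Without adjustment 3 of 6 had a p under 0.05 (Arg1, Chia1 and Chil3), against 12.9% of all genes. For 162 µg of NRCWE-025 on day 1 the count was 0 of 6 beside 0.209% of all genes, and Arg1 alone was under 0.05 unadjusted, beside 12.3%. For 54 µg of NRCWE-030 on day 1 it was 0 of 6 beside 0.0804%, with Chia1 alone under 0.05 unadjusted, beside 8.76% of all genes. On day 28 at 162 µg it was 0 of 6 with either NM, beside 0.0161% for NRCWE-025 and 0.0965% for NRCWE-030, and 0 of 6 unadjusted.

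The remaining ratio comparisons also gave 0 of 6. The share of all genes called on day 1 was 0% at 18 and 54 µg of NRCWE-025, while 18 µg of NRCWE-030 had 0.00536%. On day 28 it was 0.059% and 0.0268% at 18 and 54 µg of NRCWE-025, and 0.118% and 0.0536% at those doses of NRCWE-030. For the dose effect (an F test over the doses) it was 0.0214% for NRCWE-025 on day 1 and 0.0268% on day 28, while NRCWE-030 had 0.954% and 0.102%. For NRCWE-030 minus NRCWE-025 over the 3 doses it was 0.155% on day 1 and 0.241% on day 28, and at 162 µg on day 1 alone 0%. The change of the 162 µg effect between the days had 0.059% and 0.198% of all genes called, and vehicle on day 28 against day 1 had 0.0375%. Unadjusted, 0 to 3 of the 6 members had a p under 0.05 in these comparisons, where 5.12% to 11.2% of all genes did.

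**Figure D1:**
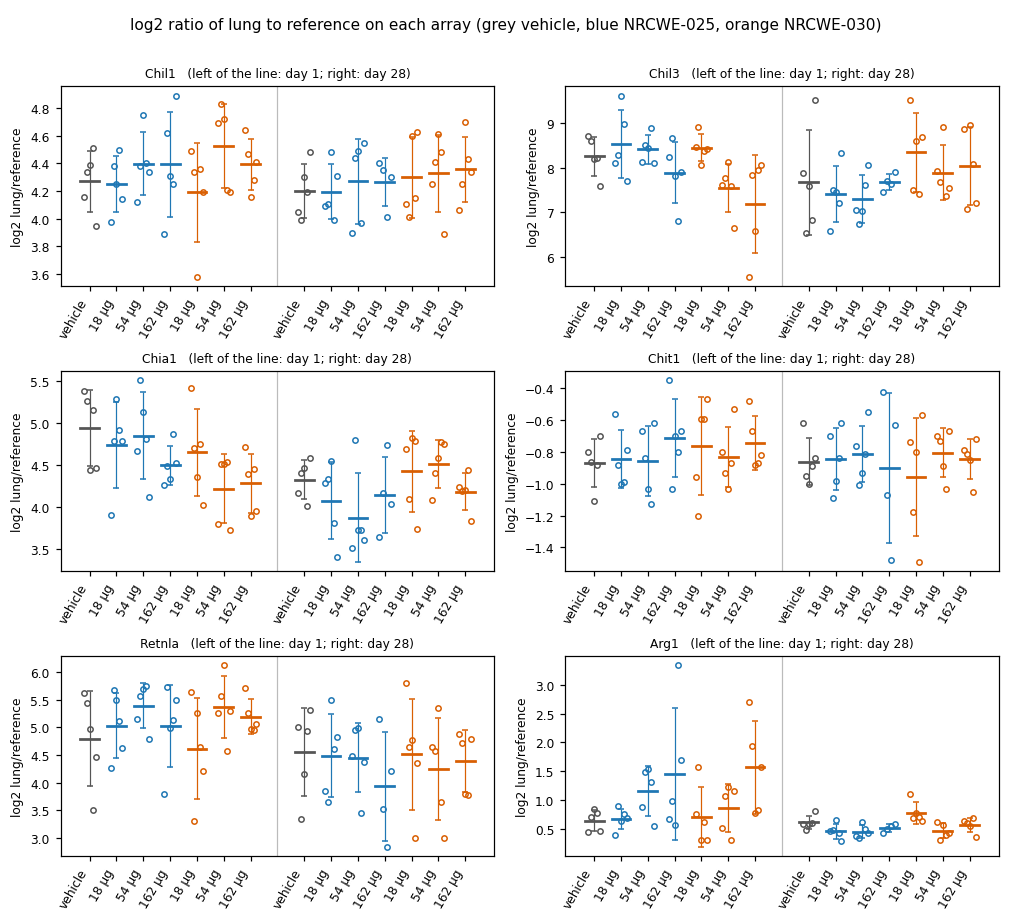
Log2 ratio of lung (Cy5) to reference (Cy3) for the 6 genes on each array (open points), by group along the x axis, with day 1 left and day 28 right of the line; bars are group means and whiskers 1 SD. Chil3 was lowest after 162 µg of NRCWE-030 on day 1 (7.19), Arg1 was highest there (1.57), and Chil1 stayed between group means of 4.19 and 4.53.

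The lung channel on its own, scaled between arrays by quantiles, gave another picture for Chil1 and Chil3. Read this way, 2 of 6 members passed at 162 µg of NRCWE-030 on day 1, 1 higher and 1 lower, where 2.33% of all genes did. At 54 µg of NRCWE-030 it was 1 of 6, beside 0.193%, and for the dose effect of NRCWE-030 on day 1 1 of 6, beside 1.57%. For 162 µg of NRCWE-025 it was 0 of 6, beside 0.273% of all genes, with Arg1, Chil1 and Chil3 under 0.05 unadjusted, beside 12.2% of all genes. This reading was added after the ratios had been seen, because the reference channel itself moved for Chil1.

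In every other lung channel comparison 0 of 6 members passed, and at most 3 of 6 had an unadjusted p under 0.05, where 4.72% to 9.22% of all genes did. On day 1 the share of all genes called was 0.0161% at 18 µg of NRCWE-030, 0% at 18 and 54 µg of NRCWE-025 and 0.102% for the dose effect of NRCWE-025. On day 28 it was 0.0429%, 0.0322% and 0.00536% at 18, 54 and 162 µg of NRCWE-025, and 0.166%, 0.0482% and 0.075% at these doses of NRCWE-030. The dose effects on day 28 had 0.00536% and 0.113%. The difference between the NMs over the doses had 0.102% on day 1 and 0.198% on day 28, and 0% at 162 µg on day 1. The change of the 162 µg effect between days had 0.0268% for NRCWE-025 and 0.198% for NRCWE-030, and the vehicle groups had 0.0322%.

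**Figure D2:**
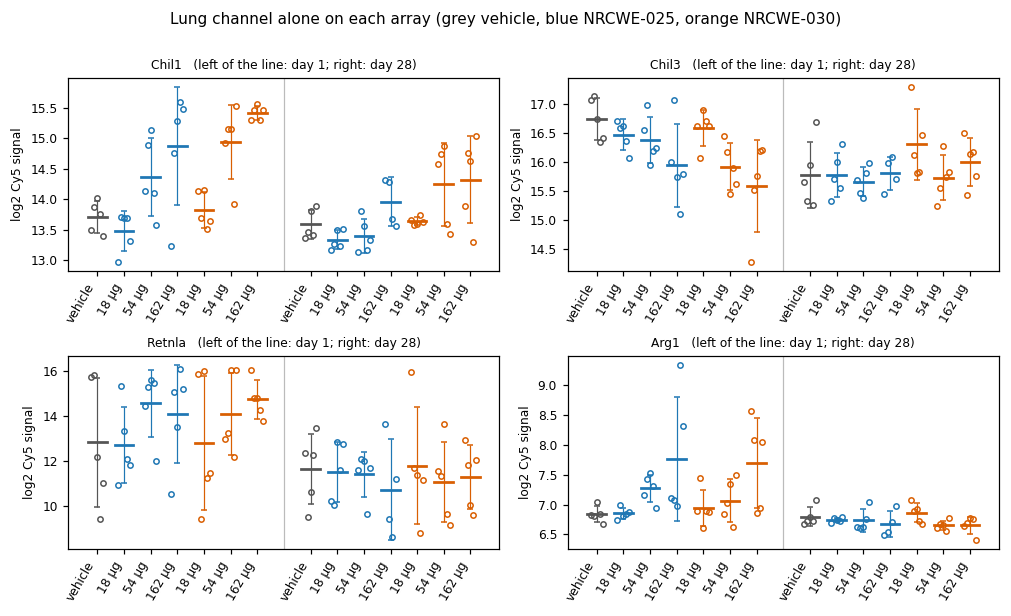
Log2 Cy5 signal of the lung channel alone for Chil1, Chil3, Retnla and Arg1 on each array, with group means (bars) and 1 SD (whiskers), vehicle in grey, NRCWE-025 in blue and NRCWE-030 in orange. The 5 Chil1 values after 162 µg of NRCWE-030 on day 1 lie between 15.30 and 15.57, above every vehicle value, while Retnla spans 7.43 log2 units over all arrays.

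Chil1 encodes a secreted lectin of the chitinase family (known in humans as YKL-40) that binds chitin without cutting it. In the lung channel, vehicle lungs on day 1 had log2 signals of 13.49, 13.87, 14.03, 13.76 and 13.40. After 162 µg of NRCWE-030 they were 15.31, 15.46, 15.57, 15.30 and 15.46. All 5 exposed lungs lay above all 5 vehicle lungs, and the exposed lungs differed little from one another (SD 0.12). As a ratio, without scaling between arrays, their SD was 0.18. Chil1 was bright, and the quantile scaling holds the brightest signals nearly alike. Its part in that narrow range was not tested. Chil1 rose by 1.71 (SE 0.21) on the log2 scale of the lung channel, 3.27-fold, with an adjusted p of 0.000234 in limma.

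Chil1 was also called at 54 µg of NRCWE-030 in the lung channel, but not at 18 µg. At 54 µg the log2 signals were 14.92, 15.15, 15.16, 13.93 and 15.53, and 4 of the 5 lungs exceeded every vehicle lung. That difference was 1.22 (SE 0.21, limma adjusted p = 0.0223), and at 18 µg it was 0.12 (limma adjusted p = 0.944). The call at 54 µg was kept in 12 of 20 refits that each left out 1 array, with adjusted p in limma from 0.000129 to 0.0819, and was lost without vehicle replicate 1, 2, 4 or 5 or replicate 1, 2, 3 or 5 at 54 µg. The dose effect over the groups had an adjusted p of 0.000328.

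With 162 µg of NRCWE-025, the Chil1 log2 signals in the lung channel were 13.24, 14.76, 15.29, 15.60 and 15.49. In this group 4 lungs lay above every vehicle lung and 1 lay below all of them. The difference was 1.16 (limma adjusted p = 0.178) and at 54 µg it was 0.66 (limma adjusted p = 0.831). NRCWE-030 minus NRCWE-025 at 162 µg was 0.54 (SE 0.30, limma adjusted p = 0.642), so a difference between the NMs was not shown. On day 28 Chil1 was 0.38 (limma adjusted p = 0.907) above vehicle after 162 µg of NRCWE-025 and 0.74 (limma adjusted p = 0.587) after NRCWE-030. The day 1 effect of 162 µg of NRCWE-030 exceeded its day 28 effect by 0.97 (SE 0.42, limma adjusted p = 0.627).

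As a ratio to the reference, Chil1 barely differed between the same lungs. Vehicle lungs on day 1 had log2 ratios of 4.16, 4.34, 4.39, 4.51 and 3.95. The lungs given 162 µg of NRCWE-030 had 4.64, 4.47, 4.16, 4.28 and 4.41. The groups overlapped, and their difference was 0.12 (limma adjusted p = 0.861). For NRCWE-025 at 162 µg it was also 0.12 (limma adjusted p = 0.813).

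The reference channel for Chil1 moved with the lung channel, although every array carried the same reference RNA. Vehicle arrays on day 1 had log2 Cy3 signals of 9.87, 10.03, 9.97, 9.78 and 9.81. Arrays of 162 µg of NRCWE-030 had 11.39, 11.62, 11.91, 11.40 and 11.61. All 5 were above all 5, and the difference was 1.69 (SE 0.26, limma adjusted p = 0.0103), about the size of the difference in the lung channel. In the Cy3 channel 0.0322% of all genes passed in this comparison, which was 6 genes: Chil1, Cfb, Lcn2, Saa1, Saa2 and Itih4. Cfb is a complement factor, Lcn2 an iron-carrier binding protein, and Saa1 and Saa2 are acute phase proteins.

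Over the 69 arrays, the Cy3 and Cy5 signals of the Chil1 probe correlated at r = 0.95, and at 0.85 after the group means were taken out. The Cy3 signal rose by 0.92 log2 units for each log2 unit of Cy5. The median over 40831 probes was 0.30, and 0.478% of the probes reached 0.9. The points share their array and spot, so the correlation is a description. Chil1 spots were bright, with raw Cy5 signals of 3955 to 66906 and raw Cy3 signals of 356.5 to 4747, and no lung channel spot was marked as saturated. Why the reference signal moved was not tested, so for Chil1 the ratio and the lung channel are given side by side.

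**Figure D3:**
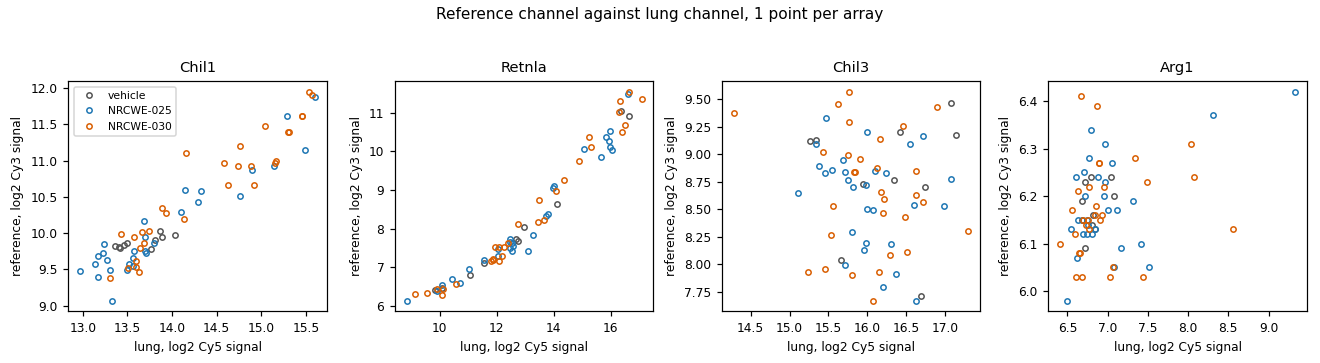
Log2 Cy3 (reference) signal against log2 Cy5 (lung) signal on each array for the Chil1, Chil3 and Arg1 probes and 1 Retnla probe, with colours for vehicle, NRCWE-025 and NRCWE-030. For Chil1 (r = 0.95) and Retnla (r = 0.97) the reference signal climbs with the lung signal, whereas for Chil3 (r = -0.10) and Arg1 (r = 0.34) it does not follow closely.

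Chil3, once called Ym1, encodes a secreted chitinase-like lectin that makes up crystals in inflamed mouse airways. Its log2 ratios in vehicle lungs on day 1 were 8.71, 8.59, 8.19, 8.21 and 7.58. In the lungs given 162 µg of NRCWE-030 they were 5.55, 7.83, 6.57, 7.95 and 8.06. Only 2 of the 5 exposed lungs lay below all vehicle lungs, and replicate 1 was far lower than the others. The Chil3 ratio difference was -1.06 (SE 0.39, limma adjusted p = 0.205), with group means of 7.19 ± 1.1 and 8.26 ± 0.44 (SD, n = 5 each).

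Read from the lung channel alone, the Chil3 log2 signals after 162 µg of NRCWE-030 were 14.28, 15.53, 15.77, 16.20 and 16.22, against 17.08, 17.14, 16.74, 16.35 and 16.42 in vehicle. The groups did not overlap, with every exposed lung below every vehicle lung. Chil3 fell by 1.15 (SE 0.29, limma adjusted p = 0.0431), to 0.451 of the vehicle level. This call depended on single arrays: it was kept in 8 of 20 refits that each left out 1 array of the 4 groups fitted together, with adjusted p from 0.0282 to 0.115, and it was lost without vehicle replicate 1, 2, 3 or 5. The call was also lost without replicate 1, 2 or 3 at 162 µg, replicate 2 or 4 at 54 µg, or replicate 1, 4 or 5 at 18 µg. The estimated difference stayed between -1.30 and -0.82 throughout. The Chil3 reference signal did not track the lung signal (r = -0.10 over 69 arrays).

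For the other exposures Chil3 was not called. At 54 µg of NRCWE-030 on day 1 the lung channel difference was -0.82 (limma adjusted p = 0.332), with 4 of 5 lungs below all vehicle lungs, and at 18 µg it was -0.16 (limma adjusted p = 0.943). For 162 µg of NRCWE-025 the Chil3 signals were 16.00, 17.08, 15.75, 15.11 and 15.80, a difference of -0.80 (limma adjusted p = 0.224) with 4 of 5 lungs below all vehicle lungs. On day 28, the lung channel difference at 162 µg was 0.03 with NRCWE-025 and 0.22 with NRCWE-030. Vehicle lungs themselves were 0.96 lower on day 28 than on day 1, a difference that did not pass (limma adjusted p = 0.459) but was close in size to the exposure difference.

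Marker genes of alveolar macrophages, the main source of Chil3 at rest, were read beside it. At 162 µg of NRCWE-030 on day 1 in the lung channel, 3 of the 11 tested markers were called, where 2.33% of all genes were. Cidec (a lipid droplet protein) fell by 1.39, Ear1 (a ribonuclease) fell by 1.55 and Itgax (the integrin CD11c) rose by 0.62. The same share of all genes stands beside the calls for the other cell types below. The summed alveolar macrophage markers ran from 12.82 to 14.27 on a log2 scale in the exposed lungs, with a median of 13.85, and from 13.66 to 14.00 in vehicle, with a median of 13.87. Over the 69 arrays Chil3 correlated with that sum at r = 0.49 in the lung channel. Of the 10 neutrophil markers, Csf3r (1.28) and Il1r2 (1.30) rose, and the summed neutrophil markers ran from 14.17 to 14.73 against 13.67 to 14.77 in vehicle. As mean log2 ratios to the reference, without the quantile scaling, the neutrophil markers did not overlap, at 1.54 to 1.97 against 1.25 to 1.42 in vehicle. The mean ratios of the alveolar macrophage markers did overlap (2.62 to 3.9 against 3.18 to 3.98). Of the 9 tested markers of monocytes or interstitial macrophages, C1qb, a complement subunit, rose by 0.62 (limma adjusted p = 0.0098). The sum of these markers ran from 15.12 to 15.53 (median 15.34) against 14.74 to 15.35 (median 14.93). Their mean log2 ratios overlapped too, at 1.42 to 1.86 against 1.26 to 1.61. The defining eosinophil markers were mostly dim, with Epx well above background on 3 and Prg2 on 19 of the 69 arrays, while Siglecf was so on all 69. Of the 7 eosinophil markers, Ear6 alone was called (0.64 higher, limma adjusted p = 0.0133), and it was well above background on 36 arrays. The part of cell numbers in the Chil3 result was not tested.

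The gene most like Chil3 over the 69 arrays was Chil4, a near-identical neighbour whose transcript may be read by the same probe, so the values of both are uncertain as to which gene they belong. Among 13705 genes, it correlated with Chil3 at r = 0.81 in the lung channel and 0.63 as a ratio. At 162 µg of NRCWE-030 on day 1, Chil4 differed from vehicle by -0.93 as a ratio (limma adjusted p = 0.213) and by -0.98 in the lung channel (limma adjusted p = 0.282). The next genes after Chil4 ran from Ms4a8a (0.66) to Gria1 (0.61) in the lung channel. The genes most like Chil1 in the lung channel were Lcn2 (r = 0.97), Vnn3 (0.94), Saa3 (0.93), Noxo1 (0.92) and Itih4 (0.92). As a ratio they were others, led by the surfactant protein genes Sftpa1 (0.71) and Sftpd (0.67). The arrays share exposure and scaling, so these values carry no test.

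Chia1 encodes acidic mammalian chitinase, which digests chitin in the airway and gut. Its log2 ratios in vehicle lungs on day 1 were 5.38, 5.26, 4.44, 5.16 and 4.46. After 162 µg of NRCWE-030 they were 4.72, 4.39, 3.89, 4.45 and 3.95, and with 54 µg 3.80, 4.51, 4.51, 4.53 and 3.73. The exposed groups were lower on average but overlapped with vehicle. The ratio differences were -0.66 (limma adjusted p = 0.243) at 162 µg and -0.73 (limma adjusted p = 0.353) at 54 µg.

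Read from the lung channel alone, Chia1 differed by -0.75 (limma adjusted p = 0.15) at 162 µg of NRCWE-030 on day 1, and 4 of the 5 lungs were below all vehicle lungs. At 54 µg it differed by -0.74 (limma adjusted p = 0.308), again with 4 of 5 below. After 162 µg of NRCWE-025 the ratio difference was -0.45 (limma adjusted p = 0.5). The 2 Chia1 probes gave -0.63 and -0.70 as ratios at 162 µg of NRCWE-030, so they pointed the same way. The Cy3 signal of these probes was well above background on only 39 and 59 of the 69 arrays, which limits the ratio. Vehicle lungs on day 28 were 0.62 lower than on day 1 as a ratio (limma adjusted p = 0.479).

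Chit1 encodes chitotriosidase, a chitinase made by macrophages in humans. Its probe was well above background in the lung channel on 17 of the 69 arrays. The reference channel was above background on all 69. The group means of the log2 ratio ran from -0.96 to -0.71, and the lung signals from 5.92 to 6.62 on the log2 scale. No fold change is given for Chit1, because most lungs gave only an upper bound.

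Arg1 encodes arginase 1, which turns arginine into ornithine. Its log2 ratios in vehicle lungs on day 1 were 0.44, 0.70, 0.84, 0.77 and 0.46. After 162 µg of NRCWE-025 they were 0.67, 0.99, 0.56, 3.34 and 1.70, and after 162 µg of NRCWE-030 2.70, 1.94, 0.78, 0.83 and 1.58. In each exposed group 3 of the 5 lungs lay above all vehicle lungs and the other 2 lay within the vehicle range.

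The Arg1 ratio differences were 0.81 (limma adjusted p = 0.359; 1.45 ± 1.14 against 0.64 ± 0.18, SD, n = 5 each) for NRCWE-025 and 0.93 (limma adjusted p = 0.151; 1.57 ± 0.81) for NRCWE-030. The exposed lungs thus spread several times more than the vehicle lungs. At 54 µg of NRCWE-025 the ratios were 0.87, 1.49, 1.54, 1.32 and 0.55, of which 4 of 5 lay above all vehicle lungs, and the difference was 0.51 (limma adjusted p = 0.879). The differences in the lung channel at 162 µg were 0.92 (limma adjusted p = 0.218) and 0.86 (limma adjusted p = 0.0982). NRCWE-030 minus NRCWE-025 at 162 µg was 0.12 (SE 0.28, limma adjusted p = 0.968) as a ratio.

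On day 28, the Arg1 ratios of vehicle lungs were 0.58, 0.48, 0.59, 0.60 and 0.80. Those given 162 µg of NRCWE-025 had 0.43, 0.50, 0.55 and 0.58, and with 162 µg of NRCWE-030 the values were 0.64, 0.60, 0.55, 0.68 and 0.35. These lungs overlapped with vehicle, and the differences were -0.09 and -0.05. The Arg1 effect of 162 µg was larger on day 1 than on day 28 by 0.90 (limma adjusted p = 0.401) with NRCWE-025 and by 0.97 (limma adjusted p = 0.471) with NRCWE-030, and neither difference passed. The Arg1 reference signal was well above background on only 5 of the 69 arrays, so the denominator of the ratio was mostly not well above background. The genes most like Arg1 in the lung channel were the eosinophil chemokine gene Ccl24 (r = 0.80), the protease inhibitors Serpina3n (0.77) and Serpina3m (0.77), and the cytokine gene Il6 (0.75) and the acute phase gene Saa2 (0.75).

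**Figure D4:**
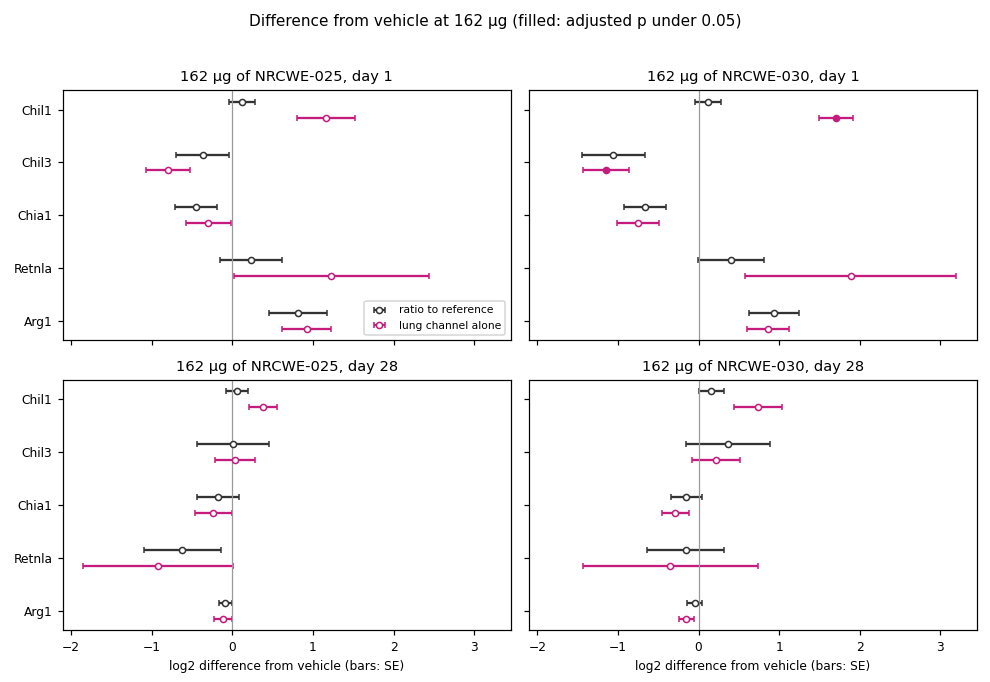
Log2 difference from vehicle (points, with SE) at 162 µg for Chil1, Chil3, Chia1, Arg1 and Retnla, for both NMs and both days, as a ratio and in the lung channel alone; filled points passed an adjusted p of 0.05. The filled points are Chil1 (1.71) and Chil3 (-1.15) in the lung channel on day 1 after NRCWE-030.

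Retnla encodes the secreted protein RELMα, also called FIZZ1. It varied widely between lungs of one group. Lung channel log2 signals of vehicle lungs on day 1 were 15.72, 15.82, 12.18, 9.42 and 11.01. After 162 µg of NRCWE-030 they were 16.03, 14.79, 14.77, 14.26 and 13.75, and after 162 µg of NRCWE-025 10.52, 15.07, 13.51, 16.05 and 15.19. The exposed lungs overlapped with vehicle in both cases, and the NRCWE-030 lungs all lay in the upper part of the vehicle range or above it. The differences were 1.89 (limma adjusted p = 0.594) and 1.23 (limma adjusted p = 0.74).

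Over all arrays, Retnla ran from 8.62 to 16.05 in the lung channel, and its pooled SD within groups was 1.93, at percentile 99.9 of all genes. As a ratio its range was 2.84 to 6.13 and the SD within groups 0.74. The ratio differences at 162 µg on day 1 were 0.40 (limma adjusted p = 0.793) with NRCWE-030 and 0.23 (limma adjusted p = 0.859) with NRCWE-025, and on day 28 they were -0.16 and -0.62. The 2 Retnla probes gave 0.31 and 0.48 at 162 µg of NRCWE-030 on day 1. As for Chil1, the reference signal followed the lung signal, with r of 0.97 and 0.98 for the 2 probes. Within groups Retnla went with the summed markers of fat (r = 0.63), airway secretory cells (0.62) and atrial muscle (0.61), over 69 arrays of the lung channel. With the group means left in, these were 0.30, 0.15 and 0.25, and the part of tissue sampling in the spread of Retnla was not tested. Among the genes most like Retnla in the lung channel were Dtl (r = 0.86), Fxyd4 (0.84), Cks1b (0.80) and Mapk13 (0.78), of which Dtl and Cks1b act in DNA replication or the cell cycle. For Chia1 no gene came close, with Tmem213 first at 0.47.

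Across the 14 groups, the levels of each gene were put in order of the group means. By lung channel means, Chil1 was highest after 162 µg of NRCWE-030 on day 1 (15.42 ± 0.12, SD, n = 5), followed by 54 µg of NRCWE-030 (14.94 ± 0.60), 162 µg of NRCWE-025 (14.88 ± 0.97) and 54 µg of NRCWE-025 (14.37 ± 0.64), all on day 1. Next came NRCWE-030 on day 28 at 162 µg (14.32 ± 0.71) and 54 µg (14.25 ± 0.68), and then NRCWE-025 at 162 µg on day 28 (13.96 ± 0.40, n = 4). The 7 remaining groups, with both vehicle groups and every 18 µg group among them, lay between 13.34 and 13.83. As a ratio the same Chil1 groups ran from 4.19 to 4.53.

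Chil3 in the lung channel ran from 16.75 ± 0.37 in vehicle on day 1 to 15.60 ± 0.79 after 162 µg of NRCWE-030 on day 1. Arg1 as a ratio ran from 1.57 ± 0.81 after 162 µg of NRCWE-030 on day 1 to 0.45 ± 0.11 after 54 µg of NRCWE-025 on day 28, and the 4 highest Arg1 groups were the 54 and 162 µg groups of day 1. Chia1 ran from 4.94 ± 0.45 in vehicle on day 1 to 3.87 ± 0.53 after 54 µg of NRCWE-025 on day 28. Retnla ran from 5.39 ± 0.41 after 54 µg of NRCWE-025 on day 1 to 3.93 ± 0.99 after 162 µg of that NM on day 28. In none of these orders did neighbouring groups differ by more than the larger of their SDs, and the arrays of neighbouring groups overlapped in each. Sorting puts groups of similar level side by side for any gene, so this says nothing about groups further apart. It was not counted over all genes.

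The slide values were read within slides that held both groups. At 162 µg of NRCWE-030 on day 1, 2 slides did so, and Chil1 was 1.54 and 2.17 above vehicle in the lung channel there. Chil3 was 2.07 and 0.65 lower on the same slides, and Arg1 was 1.93 and 0.33 higher as a ratio, in the same slide order. For 162 µg of NRCWE-025 the within-slide differences of Chil1 in the lung channel were -0.25 and 0.73, which differ in sign.

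Correlations between members differed from pair to pair. The highest lung channel correlations between members were Chil1 with Retnla (r = 0.58), Chil1 with Arg1 (0.55), Retnla with Arg1 (0.50) and Chil3 with Chia1 (0.43). After the group means were taken out, these pairs were at 0.52, 0.30, 0.23 and 0.11, in the same order. Chil1 with Chil3 was -0.20, and -0.09 within groups. As a ratio the highest was Chil1 with Retnla (0.39). These values are over 69 arrays that share their scaling and exposures.

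Related genes were counted at 162 µg of NRCWE-030 on day 1 as ratios, where 1.69% of all genes passed. The lists were chosen with earlier results of these data known, so their counts are descriptions. Of the other family 18 genes, 0 of 5 passed (Chid1, Chil4, Chil6, Ctbs and Ovgp1), and of the resistin family, 0 of 3. Of the genes of arginine and polyamine metabolism, 1 of 12 was higher, which was Arg2, the mitochondrial arginase (0.93, SE 0.19, limma adjusted p = 0.0154). Odc1, which starts polyamine synthesis from ornithine, differed by 0.06. The median difference of that list was 0.08, beside 0 over all genes.

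Of the type 2 cytokines and receptors, 0 of 19 passed, and the median was 0.07. Several of them were barely measured and could hardly pass, with Il13ra2 well above background on 0, Il5 on 2, Il25 on 9 and Il4 on 32 of the 69 arrays. Il33, an alarmin upstream of interleukin-13, differed by 0.76 (limma adjusted p = 0.0841) and the receptor gene Il4ra by 0.33 (limma adjusted p = 0.533). Of the other alternative activation genes, 3 of 20 were higher and none lower, with a median of 0.11. They were the chemokine Ccl17 (1.38, limma adjusted p = 0.0261), the scavenger receptor Msr1 (0.98, limma adjusted p = 0.00687) and the lipid receptor Trem2 (0.65, limma adjusted p = 0.0175). Mrc1, the mannose receptor and a standard marker of this state, differed by 0.06 (limma adjusted p = 0.97).

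Genes of classical activation were read beside them as the opposite macrophage state, and 4 of 14 were higher, with a median of 0.38. They were Il1b (1.27, limma adjusted p = 0.0154), Il6 (1.21, limma adjusted p = 0.0371), the interferon-type chemokine Cxcl9 (0.99, limma adjusted p = 0.00917) and the Fc receptor Fcgr1 (0.95, limma adjusted p = 0.0177). Il1b and Fcgr1 were well above background on all 69 arrays, but Il6 on only 41 and Cxcl9 on 45. Nos2, which competes with arginase for arginine, differed by 0.03 (limma adjusted p = 0.917), from a probe well above background on 32 of the 69 arrays. By the lung channel, where 2.33% of all genes passed, 4 of 20 of the other alternative activation genes rose, with Ccl24 (1.30, limma adjusted p = 0.0469) as the added gene, and Pparg, a lipid-sensing nuclear receptor, fell by 0.47 (limma adjusted p = 0.0169). Egr2, an early transcription factor, passed for the dose effect in that channel (limma adjusted p = 0.019), and of the classical genes Tnf rose by 0.50 (limma adjusted p = 0.0098), while Fcgr1, at 0.99, did not pass there (limma adjusted p = 0.0507). For 162 µg of NRCWE-025 on day 1, Ccl17 passed in the lung channel (1.28, limma adjusted p = 0.0368) and no gene of these lists passed as a ratio.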

How the data were processed

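Lung RNA of single mice (Cy5) and a universal reference RNA (Cy3) were hybridised to 2-colour Agilent 4x44K arrays. Per the file headers, the deposited intensity values and the log10 ratio came from Agilent Feature Extraction 11.0.1.1, with an array design on build mm9. The deposited series matrix holds log2 ratios that the authors normalized, and its scale and direction were checked against loess ratios made here (median r = 0.9964, slope 0.993). Deposited score columns (background and outlier flags) were used to mark spots.

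Here, median spot signals were corrected by normexp (offset 50), where a local background marked as an outlier took the median of that array's unmarked ones, and normalized by loess within arrays (limma 3.58.1, R 4.3.3). Flagged and control spots were left out (at most 0.49% flagged per array). Spots and probes of a gene were combined by the median: 66.7% of 41174 probes had a symbol, and 18656 genes were tested. The lung channel alone was normexp-corrected and quantile-normalized between arrays. The vehicle and the 3 doses of an NM on 1 day were fitted together and each dose was set against vehicle by limma's moderated test, with Benjamini-Hochberg adjustment over all genes. The steps were tested on simulated data. The number of arrays limits the precision.

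The members and gene lists were chosen with earlier results of these data known. The named genes were the members, plus the called genes and a few standard markers of the lists, and, from the 5 genes most correlated with each member, the leading ones. Nothing says whether arrays of a group came from separate litters or days, so the p-values speak only for these mice. They weigh a difference against the spread between arrays of a group. Those arrays lay on several slides and scan days, which are mixed into that spread. Alternatives covered the background correction, the authors' values, the scanner's log ratio, filters on dim probes, slide and scan day as blocks, 1 fit of all groups and leaving out each array. One gene among those most correlated with a member is not reported here.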

Additional observations from a re-analysis of the deposited data

Results flagged for a closer look

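Outlying arrays were looked for in 168 sets of values (a gene on 1 scale in 1 group), where chance alone marks about 1 in 20, and 4 stood apart. The highest Chia1 log2 ratio after 54 µg of NRCWE-025 on day 28 was 4.8, when the other lungs of that group were at 3.51 to 3.73. For Retnla in the lung channel the lowest lung of the same group was at 9.66, when the others were at 11.59 to 12.10. For Arg1 in the lung channel the highest vehicle lung on day 28 was at 7.08, when the others were at 6.68 to 6.79. For Chit1, whose probe was mostly dim, the highest lung channel value after 18 µg of NRCWE-025 on day 1 was 6.32, when the others were at 6.15 to 6.18.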

How the results depend on the processing

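As ratios, the count of members called stayed at 0 in 228 of 230 planned recalculations and in all 424 that left out 1 array (lowest 0, highest 0). The planned settings included a scaling of average brightness between arrays, which leaves the ratios unchanged and so could not alter the count. With 1 fit of all groups, 1 member was called at 162 µg of NRCWE-030 on day 1 (Arg1, adjusted p 0.046 in limma), where 585 of 18656 genes passed. With slide as a fixed block 1 was called for vehicle day 28 minus day 1 (Chia1, adjusted p 0.0292 in limma). In that fit 1375 of 18656 genes passed, and no slide held vehicle lungs of both days. The lung channel alone, chosen after seeing the data, called 2 at 162 µg of NRCWE-030 on day 1, 1 at 54 µg and 1 for the dose effect. With slide as a random block it called 2, 1 and 2, where 564, 136 and 560 of 18656 genes passed. Leaving out 1 array, without that block, gave 1 to 3, 0 to 1 and 1 to 1 members. Chil1 at 162 µg was kept in 20 of 20. At 54 µg Chil1 was kept in 12 of 20 (limma adjusted p 0.000129 to 0.0819). In the lung channel, Arg1 was called at 162 µg without replicate 3 or 4 of that group (limma adjusted p 0.0267 to 0.256 over the refits).

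Of 275 recalculations of ratio differences of the members other than Chit1, 14 changed sign. All 14 were of uncalled differences at 162 µg, and some were of the same difference under several settings. Without background correction these were Arg1 (0.04) and Chia1 (0.11) for NRCWE-025 on day 28. With the series matrix they were Arg1 (0.04) and Chia1 (0.12) for the same group. With the scanner's log ratio they were Arg1 (0.16) for NRCWE-030 on day 28, Chia1 for NRCWE-025 on day 1 (0.02) and day 28 (0.08), and Retnla on day 1, at -0.09 for NRCWE-025 and -0.17 for NRCWE-030. With slide as a fixed block they were, for NRCWE-025, Chil1 on day 1 (-0.02) and day 28 (-0.04) and Retnla on day 1 (-0.32). With scan day as a block they were Chil1 on day 28 (-0.04) and Retnla on day 1 (-0.07), both for NRCWE-025. The cause was not tested. Leaving out 1 array changed the sign in 8 of 495 refits, in part for differences already named above. They were Arg1 for NRCWE-030 on day 28 (range -0.08 to 0.01), and Chil1 (-0.01 to 0.25) and Retnla (-0.10 to 0.54) for NRCWE-025 on day 1. The others were Chil3 for NRCWE-025 on day 28 (-0.28 to 0.47, with -0.01, -0.20 and -0.07 among them, 4 refits) and Retnla for NRCWE-030 on day 28 (-0.46 to 0.03). No paired analysis was possible because the replicate numbers follow the order of the samples and pair no animals, and slides that held several groups served as blocks instead.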
